A study of Cnaphalocrocis medinalis with 6 samples.

Results

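The less abundant strand of each miRNA hairpin was followed in whole animals of Cnaphalocrocis medinalis, the rice leaf folder, a moth with larvae that live in folded rice leaves. The members were the smaller of the paired rows that the deposited tables list for each of 44 hairpins, 44 rows of 88 in all, selected on the read count summed over the 6 libraries, of which they had the lower. Because 1 smaller row repeats another read for read in every library, 43 distinct rows remained. The groups were larvae of the fifth instar and pupae, each with 3 libraries from whole-body total RNA. Per the labels' protocols, 2 animals of a stage went into a tube of TRIzol and the replicates were biological. The sources used here do not give strain, sex, age within the stage or rearing. Since whole animals were sampled, fewer cells of a type and less RNA per cell cannot be told apart.

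A miRNA hairpin is cut by Dicer into a short duplex. One strand of the duplex is usually kept in an Argonaute protein, where it guides repression of target transcripts, and the other strand, often called the passenger or star strand, is usually degraded. The strand that is kept can differ between hairpins, tissues and stages, and some hairpins deliver both strands. In insects, miRNAs take part in the hormone-driven change from larva to pupa. The tables gave no arm, strand, sequence or miRNA name, so the name "minor strand" could not be checked against them, and the members are called smaller rows. They stood second in the listing for 41 hairpins and first for 3. Few identifiers are given for the same reason, and the other members are called by their rank in mean share of the smaller-row reads.

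The smaller rows held few reads. Larval libraries 1 to 3 had 2955, 2880 and 6228 reads on the distinct smaller rows, and pupal libraries 1 to 3 had 2937, 2996 and 2540. These were 0.263%, 0.300% and 0.258% of the file total in the larval libraries and 0.374%, 0.306% and 0.473% in the pupal libraries. The file total is the sum over the 88 listed rows, repeats included, and not over all small RNA sequenced. All pupal values lay above all larval values, with means of 0.384% ± 0.0841 in pupae and 0.274% ± 0.0230 in larvae (SD, n = 3). The difference was 0.111 percentage points, and it was 0.0661 without pupal library 3, which had the highest share and the smallest library. Libraries of a stage differed by more than sampling noise over the distinct smaller rows (chi-square over degrees of freedom 3.77 to 15.7). No library thus repeated another, which does not show that they came from different animals.

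How much of a hairpin's reads the smaller row took varied widely. Over all libraries the share ran from 0.00395% to 48.9%, with a median of 3.14%. It was under 1% for 13 hairpins, 1 to 10% for 14, 10 to 25% for 9, and at least 25% for 8. The lowest shares belonged to the smaller rows ranked 25 (0.00395%, 47 reads against 1189421), 26 (0.0230%, 46 against 200048) and 16, that of Chr15_13198 (0.0233%, 305 against 1310163). All of these sat on hairpins whose larger rows were among the 5 most abundant. Across the 44 hairpins, Spearman's rho was 0.54 between the reads of the smaller and the larger row and -0.66 between the reads of the larger row and the share of the smaller one. These are descriptions across hairpins of the same libraries, and the share has the larger row in its denominator.

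**Figure D1:**
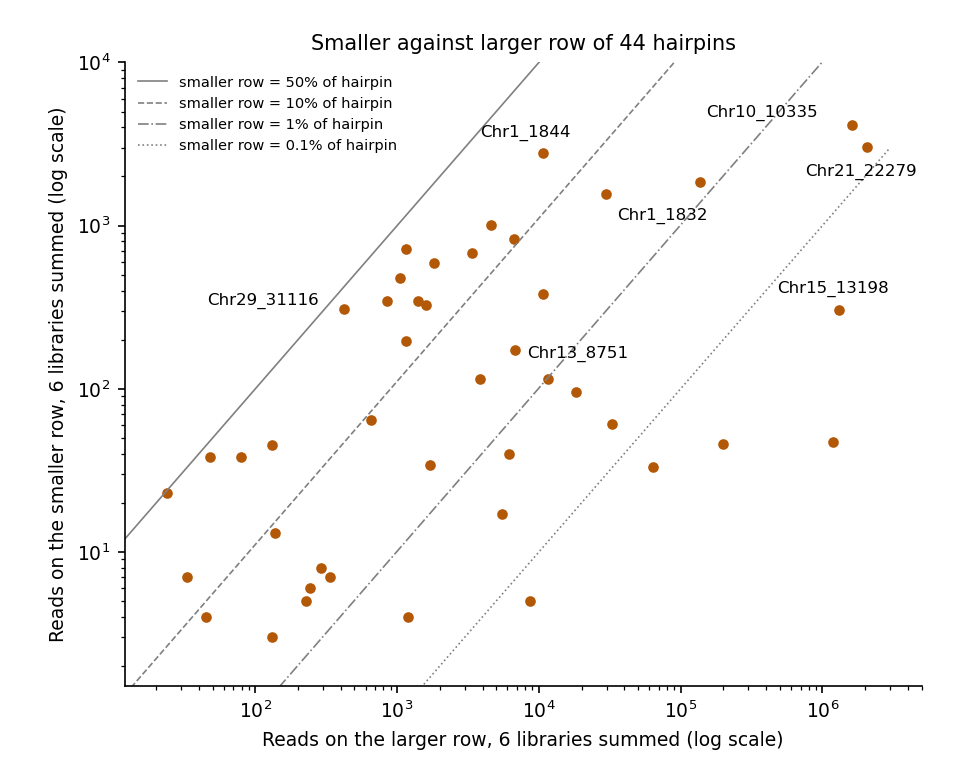
Reads summed over the 6 libraries on the smaller row (vertical, log scale) against the larger row (horizontal, log scale) of the 44 hairpins, 1 point per hairpin, with lines where the smaller row is 50%, 10%, 1% and 0.1% of the hairpin. The most abundant larger rows lie near or below the 1% line, down to 0.00395%, while the points closest to the 50% line have few reads.

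At the other end were hairpins with nearly equal rows. The closest was rank 32, with 23 reads on the smaller and 24 on the larger row, a gap of 1 read. Rank 31 followed with 38 against 48 reads, and Chr29_31116 with 308 against 425, or 42.0% of the hairpin. The order of the rows, which chose the members, did not hold in every library for 4 hairpins. The smaller row exceeded the larger in 4 libraries for rank 32, in 2 each for ranks 24 and 31, and in 1 for Chr29_31116. In that 1 library, pupal library 1, the smaller row of Chr29_31116 had 62 reads and the larger 44, a share of 58.5% (95% Wilson interval 49.0 to 67.4%, which covers counting error only).

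The pool of smaller-row reads was concentrated in a few rows. From here on, a level is the percent of a library's smaller-row reads. Each read of a small RNA stands for a whole molecule, so no scaling by length was applied. Ranks 1 to 12 held 87.7% of the pool in the mean over libraries, and 13 or 14 rows made up 90% of it in each library. No row from rank 13 on reached a mean of more than 1.78%. The most abundant smaller rows only in part belonged to the hairpins with the most abundant larger rows: ranks 1 and 2 had the larger rows ranked 2 and 1, while Chr1_1844 at rank 3 had the larger row ranked 12 and Chr1_1832 at rank 4 the one ranked 8.

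The smaller row of Chr10_10335 led the pool in larvae, with 676, 552 and 1472 reads, or 22.9%, 19.2% and 23.6%. In pupae it had 471, 582 and 391 reads, or 16.0%, 19.4% and 15.4%, and the stages overlapped between larval library 2 and pupal library 2. Its log2 fold change from larva to pupa was -0.37 (95% interval -0.87 to 0.13) and did not pass the test (adjusted p = 0.21, edgeR), with a value of 0.10 when scaled to file totals.

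The smaller row of Chr21_22279 had 467, 364 and 849 reads in larvae, or 15.8%, 12.6% and 13.6%. It had 404, 588 and 357 reads in pupae, or 13.8%, 19.6% and 14.1%, so the stages overlapped. Pupal library 2 was the highest of all and there this row led the pool. Its log2 fold change was 0.17 (95% interval -0.36 to 0.71, adjusted p = 0.56, edgeR), and -0.012 without pupal library 2. Scaled to file totals it was 0.63 and passed (adjusted p = 0.045, edgeR).

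**Figure D2:**
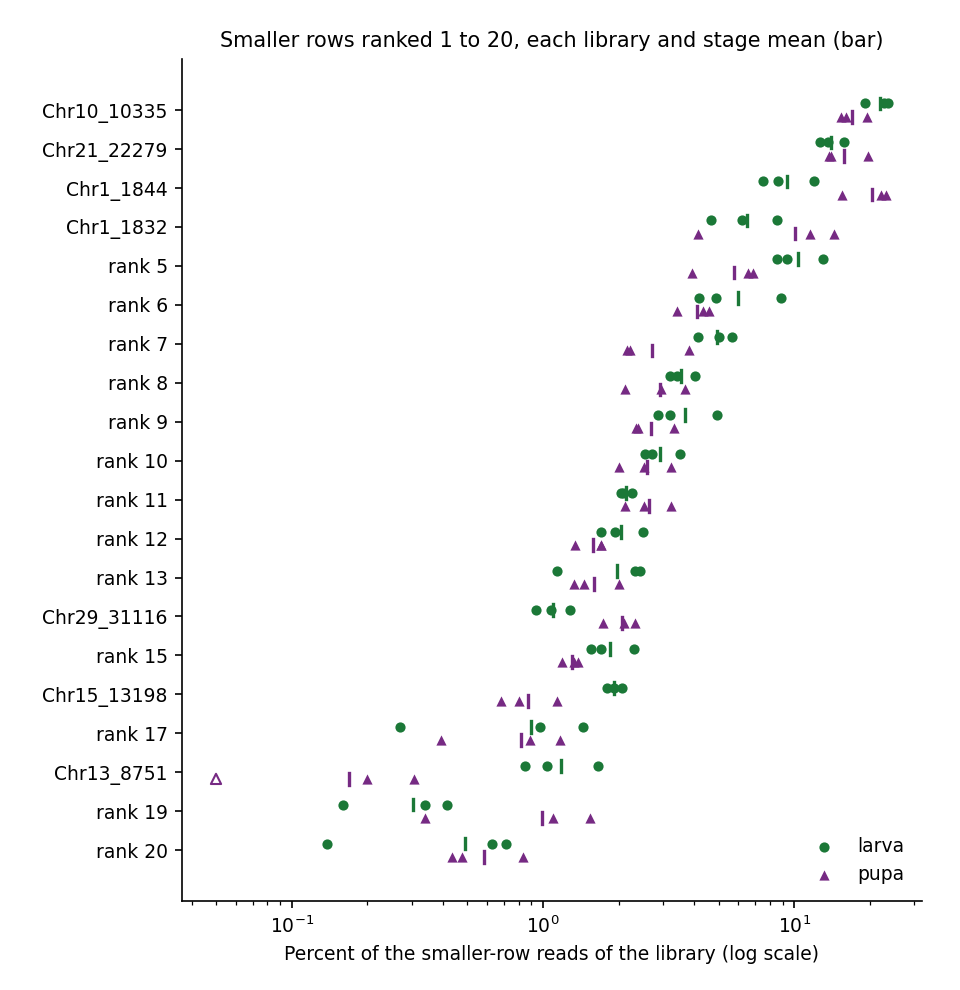
Percent of a library's smaller-row reads (horizontal, log scale) for the smaller rows ranked 1 to 20, with 1 point per library (circles larvae, triangles pupae) and a bar at the mean of the 3 libraries of a stage. The open triangle at the left edge stands for a library with 0 reads and has no position on the scale. Chr1_1844 and Chr29_31116 lie higher in all pupal libraries, and Chr15_13198 and Chr13_8751 lower.

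Between the stages, 6 of the 22 distinct smaller rows tested changed in share of the pool, 2 higher and 4 lower in pupae (edgeR quasi-likelihood test over all 61 rows, adjusted p under 0.05). That is 27.3% of those tested, and of all rows tested 32.8% were called, 21.3% higher and 11.5% lower. The other 16 did not pass, and 21 distinct rows had too few reads to be tested. The filter on low reads asked for 3 libraries at or above a CPM of 10.3, scaled to the file total. Chr13_8751 reached that level in every larval and 1 pupal library, so the larvae alone were enough for it to be tested and the pupae alone were not. The reverse held for ranks 17, 19, 20 and 21. In the smaller-row shares 7 of the 22 did not overlap between stages, or 31.8%, against 49.2% of all 61 rows, each scaled to its own class. The median log2 fold change was -0.23 over the tested smaller rows and 0.25 over all rows tested. Both the count and its balance rested on the libraries and the scaling. Without larval library 1 or without larval library 3 no smaller row was called by edgeR (7 and 5 had an unadjusted p under 0.05, and no other tool was run on those sets), and the calls were 2 higher and 1 lower without pupal library 1, 1 and 2 without larval library 2, and 2 and 2 without pupal library 3. Splits of higher and lower calls were 4 and 1 with file totals, 1 and 1 with TMM factors over all rows, 1 and 3 with TMM factors within the smaller rows, and 3 and 4 in DESeq2.

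The rise was led by the smaller row of Chr1_1844. It had 255, 344 and 467 reads in larval libraries 1 to 3, or 8.63%, 11.9% and 7.498% of the pool. In pupal libraries 1 to 3 it had 653, 464 and 591 reads, or 22.2%, 15.5% and 23.3%. All pupal values lay above all larval values, and in pupal libraries 1 and 3 this row became the most abundant of the pool. The mean went from 9.36% ± 2.31 to 20.3% ± 4.23 (SD, n = 3), a fitted rise of 2.18-fold (log2 change 1.12 with SE 0.27, adjusted p = 0.018, edgeR). The adjusted p was 0.093 without larval library 1 and 0.078 without larval library 3, and the row passed in the other alternatives run.

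Among the other abundant rows, ranks 1, 2 and 4 together held 40.4% to 44.9% of the larval and 41.4% to 43.8% of the pupal libraries, ranges that overlap. The pool in these shares includes Chr1_1844, so a higher share of that row leaves less for the others. Ranks 5 to 12 together held 32.6%, 36.0% and 38.1% in larvae and 25.9%, 28.3% and 20.9% in pupae, without overlap. With the pool summed without Chr1_1844, a scaling chosen after seeing the data, 2 rows were higher and 2 lower in pupae, and the tested smaller rows had a median log2 fold change of -0.047. Those 4 rows were the identifiers given here as risen or fallen. In that scaling ranks 1, 2 and 4 had log2 fold changes of -0.18, 0.35 and 0.84 and did not pass (adjusted p = 0.48, 0.21 and 0.19, edgeR).

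The smaller row of Chr1_1832, whose identifier carries the same chromosome label and a near number, had 183, 246 and 292 reads in larvae, or 6.19%, 8.54% and 4.69%. It had 341, 124 and 365 reads in pupae, or 11.6%, 4.14% and 14.4%. Pupal library 2 was the lowest of all 6 and the other pupal libraries the highest. Its log2 fold change was 0.64 (95% interval -0.35 to 1.62, adjusted p = 0.26, edgeR), and 1.01 without pupal library 2 (adjusted p = 0.020, edgeR). In that library the larger row of the same hairpin had 7703 reads, of 978576 in the file. It had 6153 of 785505 in pupal library 1 and 5649 of 536524 in pupal library 3, where it was higher relative to the file total. In pupal library 2 the smaller row made up 1.58% of the hairpin (95% Wilson interval 1.33 to 1.89%, for counting error only and not the spread between libraries). It made up 5.25% and 6.07% in the other pupal libraries and 5.84%, 7.75% and 5.997% in larvae.

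The other called rise was that of Chr29_31116, a row of moderate abundance at rank 14. It had 38, 27 and 67 reads in larvae, or 1.29%, 0.938% and 1.08%, and 62, 70 and 44 reads in pupae, or 2.11%, 2.34% and 1.73%. The stages did not overlap. The fitted rise was 1.87-fold (log2 change 0.91 with SE 0.26, adjusted p = 0.029, edgeR). Its larger row had a log2 fold change of 0.54 in share of the larger-row reads (adjusted p = 0.20, edgeR). Of 17 alternatives this row passed in 9, and with the replicate number as a block its adjusted p was 0.081.

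The largest fall was that of Chr13_8751. Its smaller row had 25, 30 and 103 reads in larvae, or 0.846%, 1.04% and 1.65%, and 9, 6 and 0 reads in pupae, or 0.306%, 0.200% and 0. The count of 0 in pupal library 3 allows a share of up to 0.118% of the pool, the level of 3 reads. All larval values lay above all pupal ones, and the fitted fall was 6.76-fold (log2 change -2.76 with SE 0.70, adjusted p = 0.018, edgeR). This row passed the filter through the larvae, the stage in which it was high. The larger row fell by nearly the same amount, with a log2 fold change of -2.74 (adjusted p = 0.00079, edgeR). The smaller row's value was -3.45 without pupal library 1, and its call was lost without larval library 1 (adjusted p = 0.065, edgeR) or larval library 3 (0.092).

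Chr15_13198 was the fall whose larger row was not called. The smaller row had 61, 52 and 119 reads in larvae, or 2.06%, 1.81% and 1.91%, and 20, 24 and 29 reads in pupae, or 0.681%, 0.801% and 1.14%. The stages did not overlap, and the fitted fall was 2.21-fold (log2 change -1.14 with SE 0.29, adjusted p = 0.018, edgeR). The larger row, the third most abundant, had a log2 fold change of 0.039 (adjusted p = 0.73, edgeR). As a share of the hairpin, the smaller row held 0.0263%, 0.0266% and 0.0282% in larvae and 0.0127%, 0.0122% and 0.0271% in pupae. Pupal library 3 lay among the larval values on this measure, and the ratio of the rows did not pass (limma log2 difference -0.70, 95% interval -1.51 to 0.10, adjusted p = 0.28). The fall in the pool lost its call with TMM factors over all rows (adjusted p = 0.12, edgeR), with file totals (0.18) and on leaving out larval library 1 (0.076) or 3 (0.065) or pupal library 1 (0.054).

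The remaining called falls were in abundant rows and close to the threshold. Rank 5 had 278, 247 and 814 reads in larvae, or 9.41%, 8.58% and 13.1%, and 201, 197 and 100 in pupae, or 6.84%, 6.58% and 3.94% (log2 change -0.84 with SE 0.28, adjusted p = 0.049, edgeR). Rank 7 had 122, 163 and 312 reads in larvae, or 4.13%, 5.66% and 5.01%, and 65, 114 and 55 in pupae, or 2.21%, 3.81% and 2.17% (log2 change -0.85 with SE 0.28, adjusted p = 0.047, edgeR). The stages did not overlap in either row. Their larger rows were also called lower, by -0.79 and -1.14 on the log2 scale (adjusted p = 0.047 and 0.0076, edgeR). With the pool summed without Chr1_1844, the smaller rows had log2 changes of -0.65 and -0.68 and adjusted p-values of 0.094 and 0.078 in edgeR. With file totals the changes were -0.39 and -0.43 (adjusted p = 0.18 for both, edgeR), and with TMM factors over all rows the adjusted p-values were 0.145 and 0.116 in edgeR. Of 17 alternatives, rank 5 passed in 5 and rank 7 in 8.

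**Figure D3:**
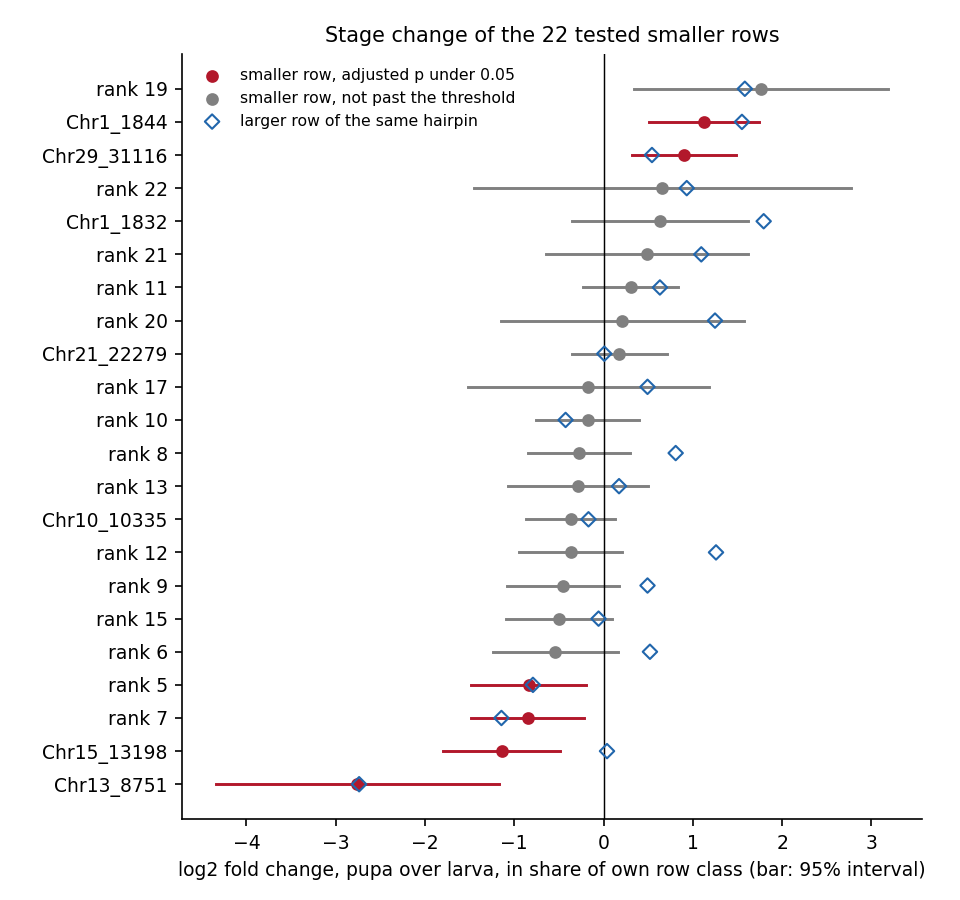
The log2 fold change from larva to pupa (horizontal) for the 22 tested smaller rows, with 95% intervals, in red where the adjusted p was under 0.05, and the larger row of the same hairpin as an open diamond, each in share of its own row class. For Chr13_8751 both rows lie together near -2.76, and for Chr15_13198 the larger row lies just above 0. The rows also lie on opposite sides of 0 for ranks 6, 8, 9, 12, 13 and 17. The classes are scaled to different sums, so opposite sides need not mean opposite directions within a hairpin. With file totals the smaller rows of ranks 8, 9 and 12 turned positive (0.16, 0.012 and 0.098), and that of rank 6 was -0.066.

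Among the 6 called smaller rows, the larger row of the same hairpin was called in the same direction for 4, namely Chr1_1844 (log2 fold change 1.55, adjusted p = 0.021, edgeR), Chr13_8751 and ranks 5 and 7. It was not called for Chr29_31116 and Chr15_13198. Among the 16 tested smaller rows that were not called, the larger row was called for 7, all of them higher in pupae. Of the 39 larger rows tested 14 were called, or 35.9%. Over all 61 rows tested, smaller and larger, 13 were called higher and 7 lower in pupae, so most calls outside the smaller rows were rises. The larger row of rank 12, one of the 7, rose (log2 fold change 1.26, adjusted p = 0.0074, edgeR), whereas its smaller row had 74, 49 and 121 reads in larvae and 50, 51 and 34 in pupae, with a log2 fold change of -0.37 (95% interval -0.95 to 0.21, adjusted p = 0.26, edgeR). The larger row of Chr1_1832 rose by 1.79 (adjusted p = 0.0017, edgeR), while its smaller row, with a change of 0.64 in the same direction, did not pass. The ratio of these rows did not pass (limma log2 difference -0.84, 95% interval -1.96 to 0.27, adjusted p = 0.295).

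The other rows of ranks 6 to 11 did not pass. Rank 6 held 4.87%, 8.85% and 4.19% of the pool in larvae and 4.56%, 3.40% and 4.33% in pupae, with larval library 2 apart from the rest. Ranks 8 to 11 ran from 2.06% to 4.95% in larvae and from 2.01% to 3.67% in pupae, and each overlapped between stages. Their log2 fold changes lay between -0.45 and 0.30 (adjusted p = 0.22 to 0.57, edgeR). Of these 4 rows, ranks 8, 9 and 10 turned sign with file totals, and rank 11 passed there with 0.77 (adjusted p = 0.040, edgeR).

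Rank 13 was the row listed identically on a pair of hairpins with the same chromosome label. In the pool and in edgeR it was counted once, with 72, 67 and 71 reads in larvae and 39, 60 and 37 in pupae. On those hairpins it made up 29.1% and 19.8% of the reads. Rank 19, singled out after its values were seen, entered the test through the pupae and did not pass. It had 10, 12 and 10 reads in larvae and 10, 33 and 39 in pupae. In share of the pool, pupal library 1 (0.340%) stood among the larvae (0.338%, 0.417% and 0.161%). Scaled to file totals, all pupal libraries lay above all larval ones. The row's log2 fold change in share of the pool was 1.76 (95% interval 0.34 to 3.19, adjusted p = 0.057, edgeR), with 0.047 in DESeq2 and a range of 0.022 to 0.19 over all alternatives.

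The tested rows of lower rank were noisier. Rank 15 did not overlap between stages, with 68, 49 and 97 reads in larvae, or 2.30%, 1.70% and 1.56%, and 35, 40 and 35 in pupae, or 1.19%, 1.34% and 1.38%, but did not pass (log2 change -0.50, 95% interval -1.10 to 0.09, adjusted p = 0.17, edgeR). Rank 21, whose identifier carries the chromosome label of Chr1_1844 and Chr1_1832 and a number between theirs, had 18, 9 and 20 reads in larvae and 19, 12 and 17 in pupae. Its stages overlapped, and its log2 change of 0.49 had an interval from -0.64 to 1.61. Ranks 17, 20 and 22 had intervals that reached from below -1 to above 1 on the log2 scale, and in rank 17 the larval libraries alone ran from 8 to 90 reads.

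The share of a hairpin's reads on the smaller row compares the paired rows within a library and needs no scaling. It was tested as a ratio of the rows in the 24 hairpins where both rows averaged at least 10 reads. These were not all distinct. Both hairpins that list the rank 13 row were among them, and ranks 9 and 17 had larger rows with identical counts. No ratio passed (limma, smallest adjusted p = 0.14), while 4 had an unadjusted p under 0.05, and 12 differences were positive and 12 negative. No other tool was run on the ratios. In 7 of the 24 hairpins, or 29.2% of those tested, the libraries of the stages did not overlap. The smaller-row share was higher in pupae in 4 of them and lower in 3, and these were picked out for their separation.

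Chr29_31116 had the largest difference between stage means among these, 14.4 percentage points. It held 34.9%, 29.7% and 39.2% of the hairpin in larvae and 58.5%, 46.1% and 42.3% in pupae (limma log2 difference 0.85, adjusted p = 0.27). Rank 10 held 16.7%, 22.3% and 24.7% in larvae and 28.5%, 29.0% and 33.9% in pupae. Rank 7 held 8.70%, 14.03% and 8.99% and then 15.6%, 16.7% and 15.8%.

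For Chr21_22279, the hairpin with the most abundant larger row, the share was 0.149%, 0.114% and 0.116% in larvae and 0.169%, 0.185% and 0.229% in pupae (limma log2 difference 0.62, 95% interval -0.04 to 1.28, adjusted p = 0.27). Lower shares in pupae were seen in ranks 8, 9 and 12. Rank 12 held 5.69%, 4.11% and 5.05% in larvae and 2.12%, 1.85% and 3.04% in pupae, with the largest log2 difference of the 24, -1.13 (95% interval -1.84 to -0.41, limma adjusted p = 0.14). It passed with a pseudocount of 5 in place of 1 (limma adjusted p = 0.029), among hairpins where both rows averaged at least 50 reads (0.011) and without pupal library 3 (0.022). Rank 8 went from 20.5% ± 3.09 to 14.3% ± 1.88 and rank 9 from 39.4% ± 6.12 to 32.1% ± 1.78 (SD, n = 3).

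**Figure D4:**
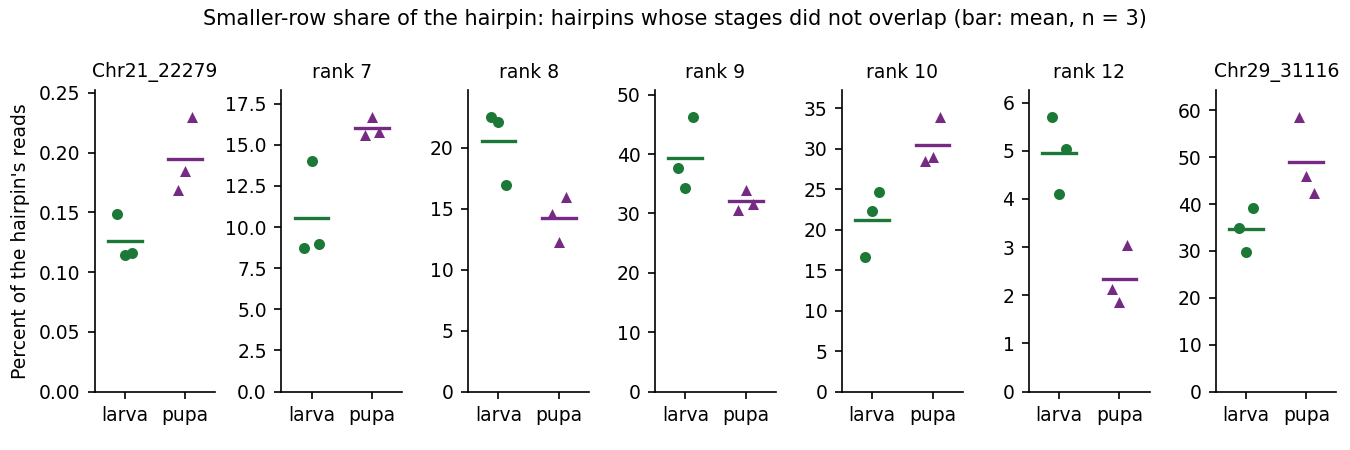
Percent of a hairpin's reads on its smaller row (vertical, from 0, a scale for each panel) in the 3 larval and 3 pupal libraries, with a bar at the mean, for the 7 hairpins whose stages did not overlap among the 24 in the ratio test. Rank 7, rank 10, Chr21_22279 and Chr29_31116 are higher in pupae and ranks 8, 9 and 12 lower, and no ratio passed the adjusted test.

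The 21 distinct rows that were not tested held 2.37% of all smaller-row reads, with 3 to 64 reads in total and 0 to 29 in a library. In 12 of them at least 1 library had no read, and 1 row, rank 38, had its 5 reads in larval library 1 alone. Of the 21, 4 did not overlap between stages in share of the pool, or 19.05%, against the 49.2% of the 61 tested rows in share of their own class, with 2 higher in pupae and 2 lower. Rank 36 had no read in any larval library and 1, 4 and 2 in pupae, which is too few for a fold. Rank 24 had 6, 4 and 5 reads in larvae and 6, 14 and 10 in pupae, and its stages were apart only by 0.203% against 0.204% of the pool, 6 reads in each of those libraries. Rank 31 had 4, 2 and 29 reads in larvae against 0, 2 and 1, and rank 32 had 5, 3 and 11 against 2, 0 and 2. With every library thinned to 2540 smaller-row reads, 35.5 to 36.7 distinct rows were expected to have a read in larvae and 36.2 to 39.0 in pupae, ranges that overlap.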

How the data were processed

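Small RNA libraries from whole larvae and pupae were prepared, per the labels' protocols, with a TruSeq Small RNA kit from Illumina. By their names, the deposited files come from the miRDeep2 Quantifier. The version, the mapping settings and the genome build were not given in the sources used here. Per the file headers, each gives raw read counts of its library, the count summed over all 6, and a normalised value. The deposited normalised value was a CPM of the file total, to within 0.005, and was not used further.

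The members and lists were chosen with earlier results of these data known. Identical rows of a class were entered once in the fit of counts, while the row ratios used every hairpin. Counts of all rows were fitted with edgeR 4.0.16 (R 4.3.3; filterByExpr, quasi-likelihood test, stage as the only term). Each row was offset by the summed reads of its class, smaller or larger, in the library, so a fold change is a change in share of that class. P-values were adjusted by Benjamini-Hochberg over all 61 rows tested, with a threshold of 0.05. Standard errors came from the coefficient and its F statistic. The median half-width of the 95% interval of a smaller row's log2 fold change was 0.64. Row ratios, log2((smaller + 1)/(larger + 1)), were tested with limma 3.58.1. Both fits were also run on simulated counts, with changes planted only in smaller rows of middle abundance. No change was planted in Chr1_1844 or Chr13_8751, and the outcome is not used here as support. DESeq2 1.42.0, other scalings, filters, a replicate block and the omission of each library were alternatives. Values summed over members carry no p.

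Identifiers were given for the 4 most abundant smaller rows and for at most 2 called rises and 2 called falls whose stages did not overlap. If libraries of a stage shared animals, which the labels do not exclude, SDs and p-values cover only the spread between these libraries.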

Additional observations from a re-analysis of the deposited data

How the results depend on the processing

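Smaller rows higher in pupae numbered 2, and moved to 1 with TMM factors over all rows, 4 with file totals, 1 with TMM factors within the smaller rows and 1 with the replicate block. Those lower numbered 4, and moved to 1 with TMM factors over all rows, 1 with file totals, 2 without a filter and 2 with the pool summed without Chr1_1844. Leaving out 1 library gave 0 to 2 higher and 0 to 4 lower. Of the 6 calls, RLE factors, DESeq2 and the pool without its most abundant row kept 6, identical rows kept separate and the filter at 50 reads kept 5, no filter, TMM factors within the smaller rows, the pool without Chr1_1844 and the replicate block 4, file totals 3 and TMM factors over all rows 2. The filter at 50 reads removed Chr13_8751 before testing, and the other 5 calls all held there. The median log2 fold change of the tested smaller rows was -0.23, against -0.15 with TMM factors over all rows, -0.20 with RLE factors, -0.40 with TMM factors within the smaller rows and 0.20 with file totals. Relative to the first of these, Chr1_1844 changed by 1.35, Chr29_31116 by 1.13, Chr15_13198 by -0.92 and Chr13_8751 by -2.53. Fitted directions reversed with file totals for Chr10_10335 (0.10) and ranks 8 (0.16), 9 (0.012), 10 (0.29) and 12 (0.098), without pupal library 2 for Chr21_22279 (-0.012, in a range up to 0.27 without 1 library), and for rank 10 with the pool without Chr1_1844 (0.0045). Of 270 alternative fold changes of 16 rows, 219 kept direction and side of the threshold. Of the row ratios, 2 passed with a pseudocount of 5, 1 at a mean of at least 50 reads, and 0 to 2 without 1 library. The difference in the share of the file total on smaller rows, 0.111 percentage points, ran from 0.0661 to 0.1497 without 1 library. The difference in rows detected, 1.58 in thinned libraries, was 0.667 without thinning and -1 without thinning at 5 reads or more, and was 0.993 without pupal library 3 and 2.41 without pupal library 1. The share of the most abundant smaller row differed by -4.94 points of the pool (-6.30 to -4.07 without 1 library), and by 0.0045 points of the file total. The causes were not tested. Whether the replicate numbers paired the libraries could not be settled. Deviations from the stage mean correlated at -0.19, -0.19 and -0.68 over 22 rows for larval and pupal libraries with the same number. For those with unlike numbers they ran from -0.44 to 0.62. Deviations from a mean of 3 libraries sum to 0, which constrains these values. The block changed no call other than those of Chr29_31116 and rank 5 (edgeR adjusted p = 0.081 and 0.074). The median half-width of 0.64 on the log2 scale limits what a single row can show; the parts of depth and of the spread between libraries in it were not tested.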
